A study of Strongylocentrotus purpuratus with 10 samples.

Results

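The peaks described here are the 320 intervals of the authors' combined Brachyury peak set that overlap no peak of antibody library 1 by 1 bp, out of 490 combined intervals in blastulae of the sea urchin Strongylocentrotus purpuratus. All 320 coincide with a peak that the authors called in antibody library 2, and each is 284 bp long. Most stood alone, 248 of the 320 when peaks at most 10 kb apart were joined, and a few developmental genes carried dense groups. The FGF receptor gene FGFR held 15 of the 320 and the brachyury gene itself had 8. The endoderm regulator GATAe, the germline regulator Nanos2, the Wnt antagonist Wif and the Wnt ligand wnt1 each held at least 1 peak with a fold over input above 10. The 2 highest scores, 41.68 and 37.31, lay inside LOC581646, a gene with no name in the files. The members were chosen by measured values, namely the presence of a peak in one list and its absence from another, so their high signal in library 2 and their lack of a peak in library 1 are descriptions and carry no test.

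Brachyury is a T-box transcription factor, a protein that binds DNA through the conserved T domain and activates or represses nearby genes. In sea urchin embryos it is expressed around the vegetal plate and future blastopore and in the oral field, where it is tied to gut formation and to gastrulation movements. Wnt and FGF signalling act upstream or alongside it in many animals, and developmental regulators often carry several binding regions for the same factor.

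Whole embryos were fixed 24 h after fertilisation, and chromatin was sequenced as 2 antibody libraries, each matched to an input library of unselected chromatin. The labels do not say whether antibody libraries 1 and 2 are different antibodies, different embryo batches or repeats. RNA was sequenced at the same stage from 3 libraries of embryos whose zygotes had received a morpholino that blocks translation of brachyury mRNA (2 to 4 pl at 200 µM) and from 3 libraries labelled as wild type controls, for which no injection is stated. The labels name no mutant, transgene or sorted cell type, and both assays average over all cells of the embryo.

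The files give 1 set of values per peak without read totals. Sequencing depth is therefore unknown, a peak has no replicate and no SD can be given. Antibody and input signal are in the authors' own units, and how they were scaled is not stated in the labels or headers. The score equalled antibody minus input signal multiplied by a distribution score between 0 and 1, to within 0.02, for all but 1 of the 7459 peaks of library 2. The exception is a GATAe peak, off by 0.16, whose distribution score is deposited as 0.07 and so is coarsely rounded. False discovery rates are the authors' percentages.

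The 320 peaks stood well above input. Their antibody signal in library 2 had a median of 2.85 (range 1.13 to 74.09) and their input signal a median of 0.52 (range 0.15 to 1.22). The fold over input had a median of 5.77, with the middle 50% of peaks between 4.31 and 8.77 and a range of 2.22 to 77.94. It reached 10 in 67 peaks and 20 in 18. The 168 combined peaks of library 2 that do overlap library 1 had a median fold of 5.26 and middle 50% between 2.65 and 13.09. The 2 sets were not cut alike, so their medians are not a like comparison. Of the members, 312 had a score of at least 1.5, whereas 62 of the 168 shared peaks had a score under 1.5. Input signal was also alike, with a median of 0.55 in those 168 peaks. The 6890 library 2 peaks outside the combined set and without library 1 overlap had a median fold of 2.32.

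**Figure D1:**
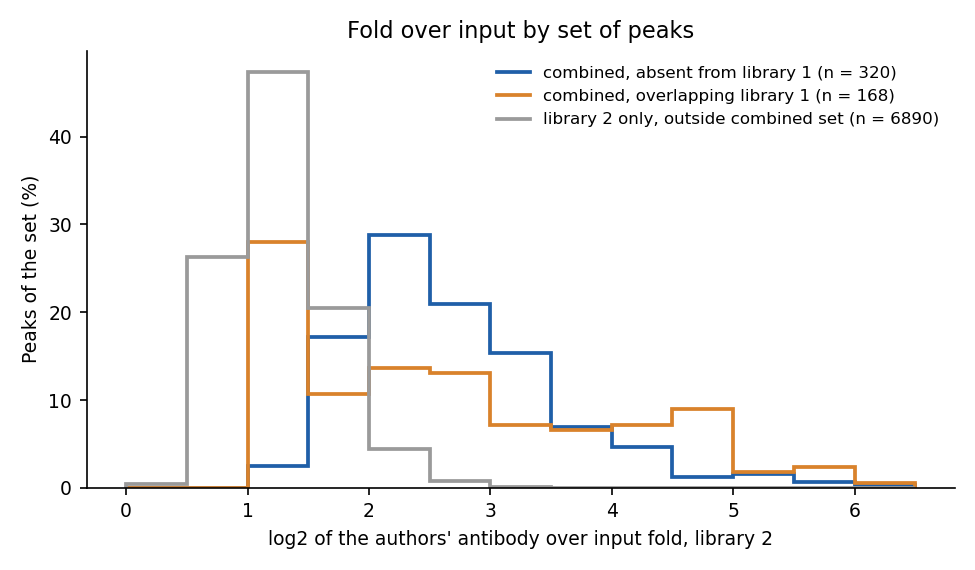
Share of peaks (vertical axis, percent of each set) by the log2 of the authors' fold of antibody over input signal in library 2 (horizontal axis, steps of 0.5). The members peak between 2 and 2.5. The combined peaks that overlap library 1 fill the same range with other shares. They hold 28.0% between 1 and 1.5 against 2.5% of members, and 8.93% between 4.5 and 5 against 1.25%. Library 2 peaks outside the combined set lie mostly between 0.5 and 2.

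A score of 1.5 separates nearly all members from the peaks left out of the combined set. The lowest score among 312 of the members was 1.51, whereas 17 of the 6890 library 2 peaks outside both sets reached 1.5, with scores of 1.5 to 2.41 and a median input signal of 1.30. The other 8 members had scores of 0.57 to 1.06 and lay only 2 to 51 bp from a library 1 peak. How the authors combined the lists is not stated in the labels or headers. Of the 168 shared peaks, 62 had a score under 1.5. Just inside the overlap rule were peaks 2 bp from a library 1 peak at LOC584145 (score 0.83, fold 2.22) and LOC588460 (score 1.06, fold 3.14), and just outside it a peak sharing 2 bp with library 1 at LOC574867 (score 1.68, fold 2.95).

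Most members were far from any library 1 peak, in a list that holds 1484 peaks where library 2 has 7459. How far other positions of the genome lie from so short a list was not tested. Among the 312 peaks of score 1.5 or more, the nearest library 1 peak lay a median of 77322 bp away. Of all 320 members, 15 lay within 1 kb of a library 1 peak, 46 within 10 kb and 131 more than 100 kb from one.

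The authors' false discovery rate rose with the score among the members, whereas it fell over the whole library, where most scores are low. The rise was not particular to the members. Shared peaks ran from 6.1% at a score of 1.08 to 26.4% at 5.04 and 83.33% at 29.24. Library 2 peaks outside both sets had a median score of 0.7. Of 126 members with a score under 2, the median rate was 8.79%, and 113 were under 10%. None of the 147 members with scores of 2 to 5 was under 10%, and their median was 14.4%. The 37 members with scores of 5 to 10 had a median of 33.3%, and the 10 members of higher score had a median of 59.7%, from 0% to 82.35%. The Spearman rank correlation between score and rate was 0.91 over the 320 members and -0.92 over all 7459 peaks of library 2, as a description of peaks that share 1 library. A low rate therefore does not mark the strongest members, and 114 of the 320 fell under 10%.

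**Figure D2:**
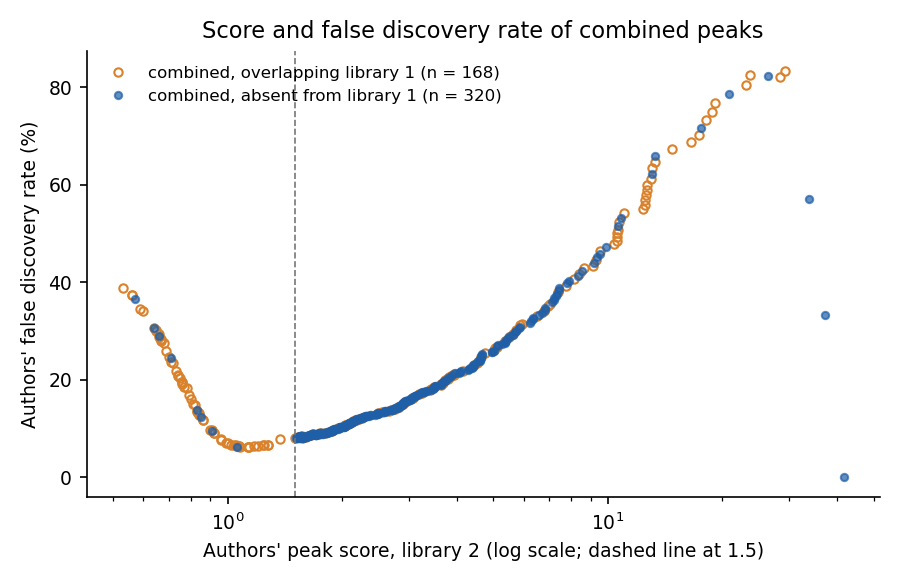
Authors' false discovery rate in percent (vertical axis) against the authors' peak score in library 2 (horizontal log axis) for the 320 members and the 168 combined peaks that overlap library 1, 1 point per peak. The rate falls to a low near a score of 1, then climbs to over 80% between scores of 20 and 30, and the 3 highest members lie off this curve at 57.14%, 33.33% and 0%.

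FGFR, which encodes a receptor tyrosine kinase for fibroblast growth factors, carried the longest run of members. Its span covers NW_022145600.1:15796986-15850047 in Spur_5.0 (53062 bp), and all 15 of its members lie inside that span. In order along the scaffold their antibody signals were 3.33, 7.05, 2.89, 5.46, 5.04, 10.41, 7.04, 13.51, 7.05, 18.21, 11.29, 4.17, 7.66, 3.85 and 8.91. The input signals beneath them ran from 0.37 to 1.21, so every one of the 15 was above the highest input value of the locus. Signal was highest 15 to 18 kb from the lower-numbered end of the span. There the peak at 15813752 to 15814035 scored 17.62 with a fold of 30.76 (false discovery rate 71.74%), and the peak at 15812255 to 15812538 scored 13.07 with a fold of 30.63 (62.26%).

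Joining peaks at most 10 kb apart, 12 of the FGFR peaks form a cluster of 21557 bp with a median step of 1092 bp between midpoints. A pair lies further along, and 1 peak stands alone 51953 bp from the lower end. No library 1 peak lies within 10 kb of the gene. The nearest library 1 peak was 11037 bp outside the span and is itself under a combined peak, with a fold of 3.83 in library 1 and 5.59 in library 2. One of the 15, at 15813226 to 15813509, had a distribution score of only 0.32, which brought an antibody signal of 7.05 down to a score of 2.06. FGFR is not in the authors' deposited table of differential genes.

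The brachyury gene (LOC576774) had the next largest group, 7 members inside its span of 16418 bp at NW_022145607.1:32932889-32949306 and 1 member 9322 bp below it with an antibody signal of 1.91 over 0.35. Along the span the antibody signals were 10.26, 8.17, 6.69, 2.2, 8.13, 5.17 and 10.56, over input signals of 0.74, 0.28, 0.33, 0.25, 0.33, 0.86 and 0.65. The peaks near both ends of the gene were the highest by antibody signal, and within the span the peak at 32939779 to 32940062 was the lowest, with a fold of 8.75. Among the 7 peaks inside the span, the highest fold, 28.77, belonged to the peak at 32934568 to 32934851, and the lowest, 5.98, to the peak at 32944133 to 32944416. The median step between midpoints was 2516.5 bp. No library 1 peak lies within 10 kb of the gene, and the nearest is 11187 bp outside it, where library 2 also has a combined peak with a fold of 5.47 against 2.34 in library 1.

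**Figure D3:**
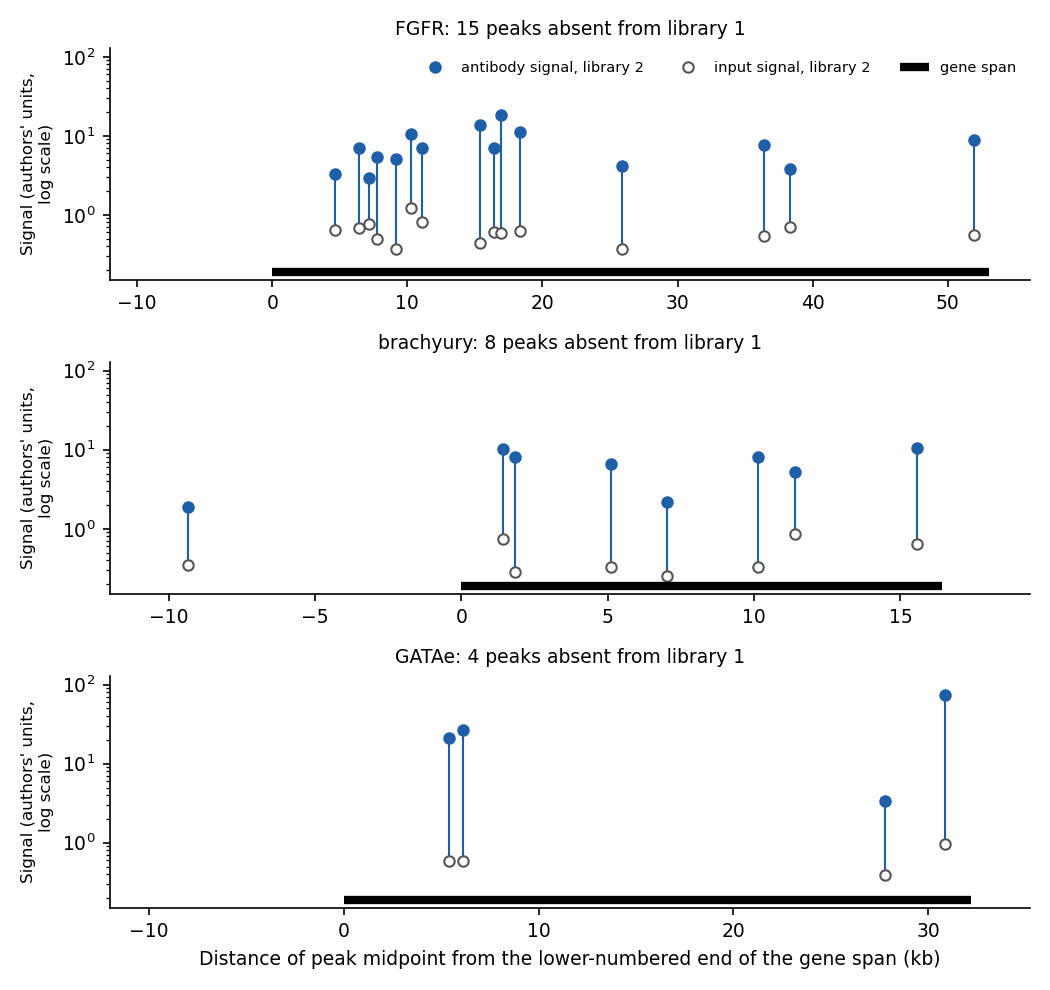
Antibody signal (filled points) and input signal (open points) of library 2 at each member of 3 genes, on a log axis in the authors' units, against the distance of the peak midpoint from the lower-numbered end of the gene span in kb. The black bar is the gene span. The 15 FGFR peaks, 7 of 8 brachyury peaks and all 4 GATAe peaks lie over the bar, and every antibody value is above the input values of its locus.

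GATAe, a GATA factor that maintains the endoderm programme in sea urchins, held 4 members in 2 pairs. The pair near the lower-numbered end had antibody signals of 21.43 and 27.01, input signals of 0.58 and 0.59, and folds of 36.95 and 45.45. In the other pair, the peak at NW_022145613.1:360312-360595 had both the highest antibody signal (74.09) and the highest fold (77.94) of all 320 members. Its distribution score of 0.07 was the lowest of the members, so its score was only 4.96. The remaining GATAe peak had an antibody signal of 3.42. A library 1 peak lies inside the GATAe span, but no combined peak covers it.

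Other members with high values stood alone or in pairs. The 2 highest scores, 41.68 and 37.31, came from neighbouring peaks, with midpoints 286 bp apart, inside LOC581646, a gene with no name in the files. These peaks, at 2340344 to 2340627 and 2340630 to 2340913, nearly touch, and whether they are separate regions was not tested. Nanos2, which encodes an RNA-binding translational repressor of primordial germ cells, is only 699 bp long, and its peak had an antibody signal of 34.4 over an input of 0.55. Wif (LOC577857), a secreted protein that binds Wnt ligands, had 1 peak inside the gene with an antibody signal of 11.33 over 0.51. The peak inside wnt1, a Wnt ligand gene, had 7.74 over 0.45 and a fold of 17.03. At LOC100892201, unnamed as well, a peak 5431 bp from the gene had a fold of 37.91.

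Clustering was limited to a minority of the members. With a gap of at most 10 kb, 72 of the 320 (22.5%) fell into 27 clusters and 248 stood alone. Of the clusters, 22 were pairs, 3 had 3 members, and those of brachyury and FGFR had 7 and 12. Among the 320, 6 touch or overlap another member, so some clusters count peaks that are not separate. Members in clusters had a median fold of 8.28 against 5.38 for single ones, with median input signals of 0.55 and 0.52. The 2 largest clusters, at FGFR and brachyury, supplied 19 of the 72, with median folds of 11.0 and 16.26. Their part in the difference was not tested. The 170 combined peaks that overlap library 1 gave 5 clusters holding 12 peaks. The clusters of 3 lay beside SPEC1, Tbx2/3 and LOC576025.

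SPEC1, a calcium-binding protein of the aboral ectoderm, had its cluster 3217 to 6469 bp from the gene. The 3 antibody signals were 7.93, 7.61 and 5.08, over inputs of 0.72, 0.41 and 0.45. The first 2 of these peaks overlap, with midpoints 212 bp apart, so their signals are not separate. The authors' deposited table gives SPEC1 a log2 fold change of -1.35 (adjusted p 2.17e-05). Tbx2/3, another T-box factor, had antibody signals of 3.21, 2.29 and 1.19, over inputs of 0.37, 0.71 and 0.5, from 1921 to 4627 bp outside its span. The lowest of these is 8 bp from a library 1 peak, over which library 2 has a further combined peak with a fold of 7.33. At LOC576025 the 3 peaks lay over 12 kb from the gene and had folds of 3.14 to 4.72.

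Of the 319 members on scaffolds that could be paired with genes, 148 (46.4%) had their midpoint inside a protein-coding gene span, against 100 of 170 shared peaks (58.8%). A further 83 members lay within 10 kb of a span. Positions within 1 kb of a span end, on either side, held 44 members (13.8%) and 21 shared peaks (12.4%). The remaining 88 lay 10245 to 122503 bp from the nearest gene, and their median fold of 5.61 was close to the 6.01 of members inside genes. The gene table gives no strand and no exons, so promoters, exons, introns and UTRs are not analysed here.

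**Figure D4:**
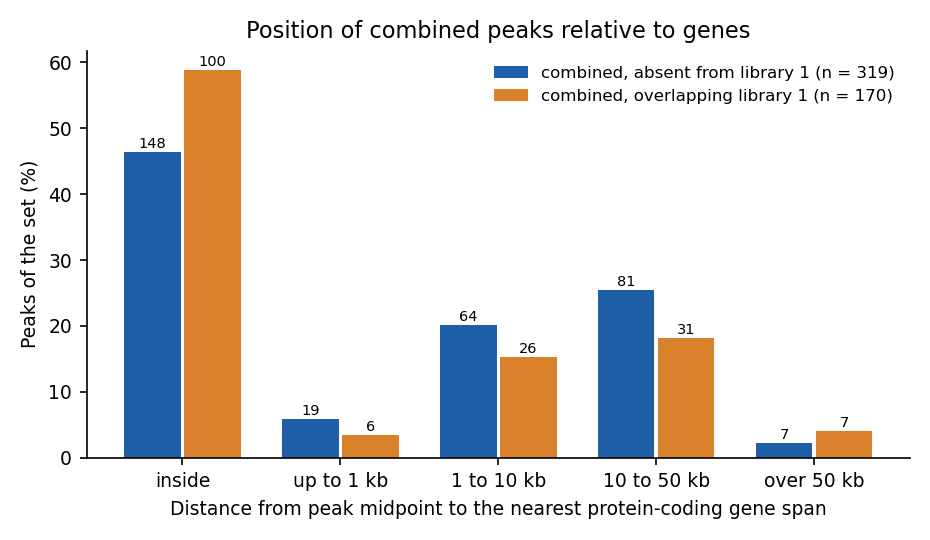
Percent of peaks (vertical axis, from 0) by distance from the peak midpoint to the nearest protein-coding gene span, for 319 members and 170 combined peaks that overlap library 1, with the number of peaks above each bar. The bars inside genes stand at 46.4% for members and 58.8% for shared peaks, and those at 10 to 50 kb at 25.4% and 18.2%, with no test of the difference.

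Giving each member to its nearest protein-coding gene within 10 kb marked 184 genes with 231 members, and 161 of the genes had a single member. In the authors' deposited table, limited to genes whose adjusted p is under 0.05, 45 of the 184 genes (24.5%) are listed, against 12.0% of all 24773 protein-coding genes on those scaffolds. The sign split was even. The table lists 22 of the 184 (12%) with a positive log2 fold change, against 5.98% of all genes, and 23 (12.5%) with a negative one, against 6.04%. Shared peaks gave a like picture, with 30 of 127 genes (23.6%) in the table, 15 of each sign, and 17 genes have peaks of both kinds. Genes next to members are longer than genes in general, their spans having a median of 20285 bp where all genes have 10226 bp, and genes in the table have a median of 15398.5 bp. The part of gene length in these shares was not tested.

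Where the log2 fold change had an absolute size of 1 or more in the authors' deposited table, 19 of the 184 genes (10.3%) were listed, against 6.05% of all genes. Of the 184 genes, 5 were listed as positive and 14 as negative, where the background was 2.35% and 3.70% of all genes. The positive count is close to its background. At an adjusted p under 0.01 the authors' deposited table lists 35 of the 184 genes (19%), against 7.46% of all genes. The 15 positive genes at that threshold compare with a background of 3.45%, and the 20 negative genes with 4.01%. The table does not state whether morphants or controls are the numerator, so no direction of change is read from a sign. It gives no value per library, and in whole embryos fewer cells of a type and less RNA per cell cannot be told apart.

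The 18 genes that have a member and match a whole name in the lists of developmental regulators and pathways span several territories. Joined or longer names were missed, so blimp1/krox, Hnf1aL and Gelsolinh2 (LOC588119) are not counted, though the lists hold Blimp1, Krox, Hnf1 and Gelsolin. The member inside blimp1/krox had a fold of 3.89, and the one 1475 bp from Gelsolinh2 had 11.34. Genes that the deposited table leaves out mostly have no name in the files, so list matches lean towards table genes. Among ligands and receptors, FGF, the fibroblast growth factor ligand gene, had 3 members. Their antibody signals were 3.69, 5.58 and 3.73 over inputs of 0.66, 0.43 and 0.39, and the authors' deposited table gives it a log2 fold change of -1.82 (adjusted p 3.19e-07). The 3 members at FGF were a pair at the lower-numbered end of the span and a separate peak near the other end, whereas FGFR held 15. A library 1 peak lies inside the FGF span, with a fold of 6.73 in library 1, but no combined peak covers it. The ligand gene and a receptor gene of the same pathway thus both carried more than 1 member. The growth factor gene BMP2/4 held 1 member with a fold of 3.49 and is not in the table, like wnt1.

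Wif had the highest member score of the 45 listed genes. The authors' deposited table gives it a log2 fold change of -2.55 (adjusted p 1.05e-12). Hedgehog (hh), the ligand of the Hedgehog pathway, held 1 member with an antibody signal of 2.38 over 0.47, and the authors' deposited table gives it -2.31 (adjusted p 0.0097). Delta, the ligand of Notch, had 1 member 2540 bp away with a fold of 4.03 and stood at 1.02 in the authors' deposited table (adjusted p 0.0044).

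The 4 transcription factor genes of the ectoderm and neural list that had a member were all negative. For this group the authors' deposited table gives log2 fold changes of -3.15 for Isl (LOC576365), a LIM homeobox gene of neurons, -1.69 for Msx, a homeobox gene of the aboral ectoderm, -0.85 for Tbx2/3 and -0.58 for Six3 (LOC576281), a homeobox gene of the anterior neural plate. All 4 had a member, with folds of 4.36 at Isl, 7.26 at Msx, up to 8.65 at Tbx2/3 and 5.56 at Six3. That split follows the list, since 17 of the 18 table genes matched to the ectoderm and neural list were negative whether or not they had a member.

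Genes of the mesoderm list other than Nanos2 had members of lower antibody signal than its 34.4, up to 5.02 at ets1. For gcm, a regulator of pigment cells, 2 overlapping peaks at the edge of the gene had folds of 3.37 and 3.46, and the authors' deposited table gives a log2 fold change of 0.76 (adjusted p 0.013). The 2 peaks of ets1, an ETS factor of the skeletogenic mesenchyme, had folds of 6.45 and 8.46, and ets1 is not in the table. The mesoderm and endoderm lists were split in sign, each with 1 positive and 1 negative gene that had a member. For brachyury the authors' deposited table gives 1.18 (adjusted p 8.71e-05). A translation-blocking morpholino leaves its target mRNA in place, so this value does not check the knockdown.

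A pair of adhesion and cytoskeleton genes matched their list. Lama1 (LOC579603), a laminin chain of the basement membrane, had a member 5495 bp away with a fold of 4.38, and the authors' deposited table gives it 1.06 (adjusted p 4e-10). Macf1 (LOC756550), a linker of microtubules and actin, held a member with a fold of 3.64 and stood at -0.45 in the authors' deposited table (adjusted p 0.020).

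Outside the list matches, the smallest adjusted p of the negative genes included a sulfotransferase gene, Sult1b1 (LOC100889865, described under another gene ID), and Z111 (LOC589453), described as a PR domain zinc finger protein, for which the authors' deposited table gives log2 fold changes of -2.92 and -2.49. The titin-like Fn3/Ig (LOC580285), Hnf1aL (LOC764728, also described under another ID) and EGF2, an epidermal growth factor-related gene, are given as -1.32, -1.72 and -1.51 in the authors' deposited table. The members at these 5 genes had folds of 3.9, 3.72, 5.04, 7.31 and 4 in the order named. Of the positive genes, the authors' deposited table gives 0.77 for LOC757285, described as SCO-spondin, 0.87 for the centromere protein gene Mitosin (LOC592172) and 1.28 for the chromatin remodeller gene Chd3 (LOC753159). It also gives 0.99 for the unconventional myosin Myo9B (LOC590989), 0.70 for Agrin (LOC586604), a basement membrane proteoglycan, and 0.58 for the discoidin domain receptor Ddr1 (LOC578737). Folds over input of the highest members at these 6 genes ran from 3.48 to 8.71.

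**Figure D5:**
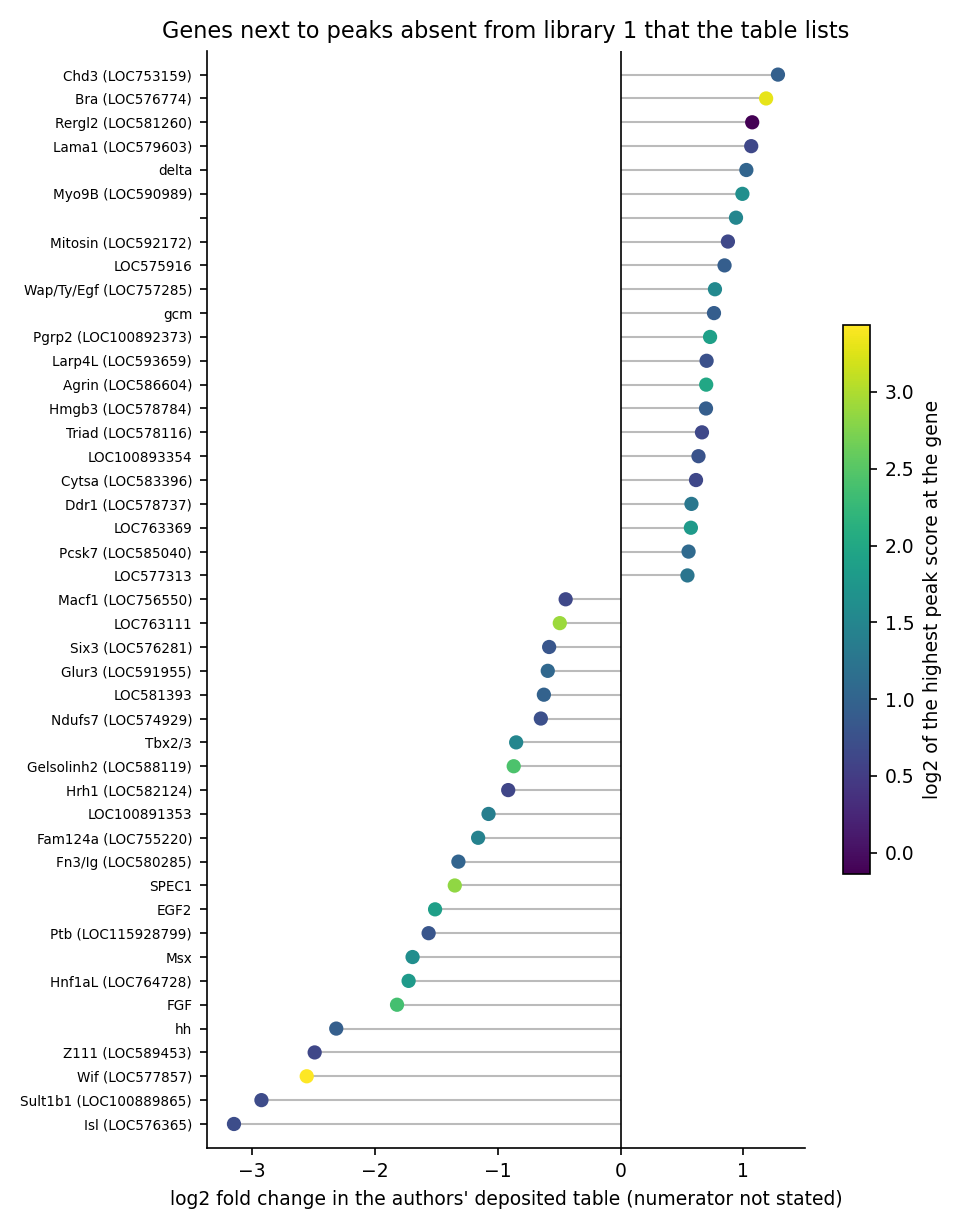
Log2 fold change in the authors' deposited table (horizontal axis) of the 45 genes that have a member within 10 kb and are listed there, 1 gene per row (1 row is not named), coloured by the log2 of the highest member score at the gene. The 22 positive genes lie between 0.54 and 1.28 and the 23 negative genes between -3.15 and -0.45, and Wif and brachyury have the highest scores.

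Among the 45 genes the negative side reached further than the positive one. Large changes also lean negative over all 24773 protein-coding genes of the scaffolds. There, 917 are negative and 582 positive at an absolute log2 fold change of 1 or more. The median absolute log2 fold change of the 45 genes was 0.87 in the authors' deposited table, against 1.06 over all its genes. By the functional classes given in that table, 4 of the 45 genes were in the signalling class (8.89%, against 0.96% of the table) and 3 in the transcription factor class (6.67% against 1.16%). Another 3 were in the adhesion class (6.67% against 2.34%) and 1 was metabolic (2.22% against 7.37%). No class was given for 31.1% of the 45 genes and 43.2% of the table, which affects these shares. Isl, Six3 and brachyury stood under classes other than transcription factor. No gene of the 45 belonged to the translation class, which makes up 2.94% of the table. Not every class is named here, and some with 1 gene also exceed their share, such as the chromosome class (2.22% against 0.0282%). All these shares rest on few genes and were not tested, nor was the part of gene length in them.

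Some regulators had members beyond 10 kb, chosen here after their values were seen. Of the 81 members 10 to 50 kb from a gene, the nearest genes numbered 72. The authors' deposited table lists 20 of them (27.8%), against 12.0% of all genes, and 12 of the 20 are positive and 8 negative, where the background was 5.98% and 6.04% of all genes. FoxA, a forkhead factor of the endoderm, had a pair of members 20157 and 21448 bp away with antibody signals of 4.87 and 3.34 over inputs of 0.31 and 0.47, and the authors' deposited table gives it a log2 fold change of -0.67. A shared peak lay nearer, 1478 bp from FoxA, with a fold of 35.63. IrxA, an Iroquois homeobox gene of the ectoderm, had a member on either side, 24025 and 17132 bp away, with folds of 3.58 and 4.37, and stood at -1.32 in the authors' deposited table. The growth factor gene Vegf3 (LOC100889860) had members 10245 and 44540 bp away with folds of 11.96 and 7.02 and stood at 0.54 in the authors' deposited table. Hbox7, a homeobox gene, had a member 20971 bp away with a fold of 18.11 and stood at 1.15, and the homeobox gene otx a member 13786 bp away with a fold of 3.18 and 0.56, both in the authors' deposited table. Shared peaks lay nearer here too, 15756 bp from Hbox7 with a fold of 6.31 and inside otx with a fold of 4.95. An even-skipped homeobox gene, eve, which is not in the table, had a member 15730 bp away with a fold of 8.37.

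Members were spread over all 21 paired scaffolds, with 4 to 28 on each. NW_022145607.1, which carries brachyury, held 6.56% of the members and 2.84% of library 2 peaks, whereas NW_022145612.1 held 7.5% of the members and 13.5% of library 2 peaks.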

How the data were processed

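Blastula ChIP and RNA libraries were grouped by their labels. Peak score, antibody and input signal, fold enrichment, distribution score (a fraction) and false discovery rate (a percent) are per-peak values deposited by the authors, as named in their headers. The log2 fold changes, p-values and adjusted p-values are the authors' own, and their deposited table is limited to an adjusted p under 0.05. Per the submitters' processing notes, the tools were BWA 0.7.17, Trimmomatic 0.38, DESeq2 1.28.1 and Salmon 0.11.3, in roles not stated. No source used here names the peak caller.

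Combined intervals were joined to library 2 rows by exact coordinates. Coordinates are Spur_5.0, counted from 1. The gene table names no scaffold, so its 21 blocks of over 20 Mb were matched, in order, to the 21 scaffolds holding over 100 library 2 peaks, and in all 21 pairs the last peak ended before the last gene end. 1 member on another scaffold has no gene. Each peak was assigned to the protein-coding gene closest to its midpoint, up to 10 kb away, and clusters joined peaks at most 10 kb apart. The steps were tested on simulated data.

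With no values per library, no test of a gene or peak was possible, and counts are set beside those of all genes. Members and lists were chosen with earlier results of these data known. Genes named are those at the 10 highest scores, at clusters of 3 or more members, on the lists, and the 10 of smallest adjusted p per sign, less 1 of these that has no name in the files and 1 that is not reported here. LOC584145, LOC588460 and LOC574867 mark the edge of the overlap rule, and blimp1/krox and Gelsolinh2 are named as near matches of the lists. The planned count of T-box motifs needs genome sequence and was not analysed here. Alternatives were other overlap, distance, gap, fold and significance limits. Python 3.11.15, numpy 2.4.6, pandas 2.3.3 and matplotlib 3.10.9 were used.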

Additional observations from a re-analysis of the deposited data

How the results depend on the processing

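The count of 320 members ranged from 308 with library 1 peaks extended by 200 bp to 448 when a library 1 peak had to reach a fold of 5, and was 382 when shared meant midpoints within 50 bp. Adding 1 to both signals brought the median fold from 5.77 to 2.53. Limits of 5 kb and 50 kb gave 199 and 312 members with a gene, and 40 and 65 genes in the authors' table (25.2% and 25.5% of those marked). Among members with a fold of at least 5, 145 of 198 had a gene, 26 of 111 genes (23.4%) were in the table and there were 16 clusters. With a log2 fold change of 1 or more in size, 19 of the genes were listed. Clustering all combined peaks gave 42 clusters with a member, and gaps of 5 and 20 kb gave 22 and 33. 2 limits were chosen after seeing the data. A score of at least 1.5 left 312 members and 44 genes in the table. A false discovery rate under 10% left 114 members, 78 of them with a gene, and 23 of 75 genes (30.7%) in the table. Taking every gene within 10 kb, also chosen after seeing the data, gave 54 of 243 genes (22.2%).

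No paired analysis was possible because the deposited tables give no value per RNA library and each peak has values from 1 antibody library. For the same reason no library was left out in turn. Depth is unknown, scaffolds of genes were inferred, and absence from library 1 says only that the authors' list has no peak there.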
